A study of Mus musculus with 16 samples.

Results

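A gene can make several transcripts, and the share of its RNA that each one takes can shift while the gene's total stays level. Transcript shares were compared between microglia of AD model and wild-type mice for 13913 transcripts of 4987 genes. No transcript passed the test for the APP/PS1 genotype, while the summed level of 83 genes did in the same libraries. The sorted cells came from 16 mice aged 11 months. Wild-type (WT) and AD model (AD) mice each had 4 mice with p38α (p38+/+) and 4 without it in microglia (p38KO). AD mice carried the APPswe/PS1dE9 transgenes (APPswe/PS1dE9+/-), which encode mutant human amyloid precursor protein and presenilin 1, and WT mice did not (APPswe/PS1dE9-/-). Every mouse was p38fl/fl, with loxP sites around exon 1 of Mapk14, the gene of p38α MAP kinase, on a C57BL/6J background. The p38KO groups carried Cx3cr1-creERT2+/- and the p38+/+ groups Cx3cr1-creERT2-/-. Cre is driven by the Cx3cr1 promoter, which is active in microglia and other mononuclear phagocytes, so the p38KO mice also had 1 disrupted copy of Cx3cr1. Every mouse was fed tamoxifen for 4 weeks from the age of 5 months, the cells were sorted as CD11b+/P2ry12+, and the 4 mice sequenced per group were those with the best RNA quality. The 8 AD libraries (4 of each p38 genotype) were set against the 8 WT libraries, with p38 genotype as a covariate.

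The filters that set the members did not use the genotypes, though they were chosen with earlier results of these data known. Of 61144 transcripts in 19955 genes, 11064 genes had at least 2 transcripts, and 6142 of those reached a summed level of 10 CPM (counts per 1000000 assigned reads) in all 16 libraries. These genes held 33907 transcripts. A transcript's share is its CPM as a percentage of the summed CPM of its gene. Transcripts with a mean share from 5 to 95% over all libraries were tested, and in the other 1155 genes 1 transcript held over 95%. By annotated class, 9799 of the 13913 were protein coding, 2822 were retained-intron transcripts, 674 were targets of nonsense-mediated decay and 551 were processed transcripts without a coding frame.

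Libraries held an estimated 12.3 to 16.4 reads per CPM, which puts a single read at 0.0609 to 0.0814 CPM. The cells carried the markers of microglia (Csf1r, Tmem119, P2ry12, Cx3cr1, Itgam, Aif1 and C1qa), whose summed level was 41304 to 49458 CPM in WT and 39144 to 45861 CPM in AD libraries. The neuronal markers in the table (7 of 8) summed to at most 6.64 CPM, the lymphocyte markers (3 of 8) to at most 1.34 CPM, the astrocyte markers (8 of 8) to 148 to 280 CPM and the oligodendrocyte markers (7 of 8) to 85.8 to 154 CPM, with overlap between WT and AD in each. Most of the astrocyte sum was Slc1a3 (146 to 266 CPM in WT and 132 to 192 CPM in AD libraries). Most of the oligodendrocyte sum was Mbp (57.8 to 96.3 CPM in WT and 73.1 to 121 CPM in AD libraries). Endothelial and mural markers (6 of 8) summed to 43.7 to 59.6 CPM in WT and 36.1 to 51.2 CPM in AD libraries, and markers of border-associated macrophages to 20.3 to 125 and 25.1 to 130 CPM. The 3 of 8 monocyte and granulocyte markers in the table summed to 3.83 to 17.0 CPM in WT and 4.59 to 24.6 CPM in AD libraries, and red blood cell markers (5 of 8) to 0.0609 to 363 and 0.0796 to 467 CPM. AD p38KO mice 4 and 1 stood apart in their shares. Their tested transcripts lay a median of 5.52 and 4.74 percentage points from the median share of the rest of their group. In the other 14 libraries this distance was 3.14 to 4.22 points. AD p38KO mouse 1 also went against its label, since it was labelled female and Xist was at 0 CPM, while the other 4 libraries labelled female held 188 to 254 CPM and the 11 labelled male at most 0.211 CPM. The 4 Y-linked genes Ddx3y, Eif2s3y, Kdm5d and Uty also summed to 0 CPM in this library, against 107.9 to 182 CPM in the libraries labelled male and at most 0.217 CPM in the other libraries labelled female, so it did not read as male either. In bulk cells a share can shift within each cell or through the mixture of cells, which cannot be told apart.

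In the spliceosome, introns are removed and exons are joined, and the choice between alternative exons, splice sites, promoters and 3′ ends gives a gene its set of transcripts. A retained-intron transcript keeps part or all of an intron, is usually held in the nucleus or degraded, and encodes no full protein. Nonsense-mediated decay removes transcripts with a premature stop codon. The exons of Pkm, Lamp2 and Cog6 are printed here because their shares are described below and show what is compared. Pkm, the glycolytic enzyme pyruvate kinase, has a pair of mutually exclusive exons, of which Pkm-201 takes the downstream one (the M2 enzyme) and Pkm-202 the upstream one (the M1 enzyme). Both are exon 9 of 11, 167 bases long, on the plus strand of GRCm38. The exon of Pkm-201 lies at chr9:59675568-59675734 and that of Pkm-202 at chr9:59675029-59675195. They differ at 64 bases (61.7% identity), printed in capitals, and both transcripts encode 531 residues.
Pkm-201 exon 9: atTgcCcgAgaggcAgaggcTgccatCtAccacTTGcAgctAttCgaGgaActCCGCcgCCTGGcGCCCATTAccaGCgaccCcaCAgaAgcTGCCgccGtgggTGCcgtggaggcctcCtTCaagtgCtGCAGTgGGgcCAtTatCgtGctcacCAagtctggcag
Pkm-202 exon 9: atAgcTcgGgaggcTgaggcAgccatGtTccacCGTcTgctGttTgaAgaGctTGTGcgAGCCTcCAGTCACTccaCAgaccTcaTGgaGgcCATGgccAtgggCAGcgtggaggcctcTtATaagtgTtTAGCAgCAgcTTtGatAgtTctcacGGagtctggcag

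Lamp2, a major protein of the lysosomal membrane, ends in alternative last exons that encode the end of the protein, including the tail facing the cytosol. Lamp2-201 ends in the tail of LAMP-2A, the receptor of chaperone-mediated autophagy, and Lamp2-202 in that of LAMP-2B. The coding parts of these last exons are 140 bases each, on the minus strand at chrX:38405432-38405571 and chrX:38421712-38421851 (GRCm38), and both transcripts encode 415 residues. The stop codon is in capitals.
Lamp2-201 last exon: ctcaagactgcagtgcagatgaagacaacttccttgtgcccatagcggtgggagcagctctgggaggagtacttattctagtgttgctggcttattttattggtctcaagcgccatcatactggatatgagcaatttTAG
Lamp2-202 last exon: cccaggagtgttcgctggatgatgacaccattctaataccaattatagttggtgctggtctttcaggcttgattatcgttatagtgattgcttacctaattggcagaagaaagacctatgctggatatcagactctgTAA

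Cog6, a subunit of the conserved oligomeric Golgi complex that tethers vesicles, had a protein-coding transcript of 19 exons, Cog6-201, and a retained-intron transcript, Cog6-205. Cog6-205 starts inside intron 13 of Cog6-201, holds 1114 of its 2436 bases, and reads through into exon 14. The boundary lies at chr3:52993552-52993591 on the minus strand (GRCm38), with intron bases in lower case and exon bases in capitals.
Cog6-205 boundary: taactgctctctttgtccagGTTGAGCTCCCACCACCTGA

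**Figure D1:**
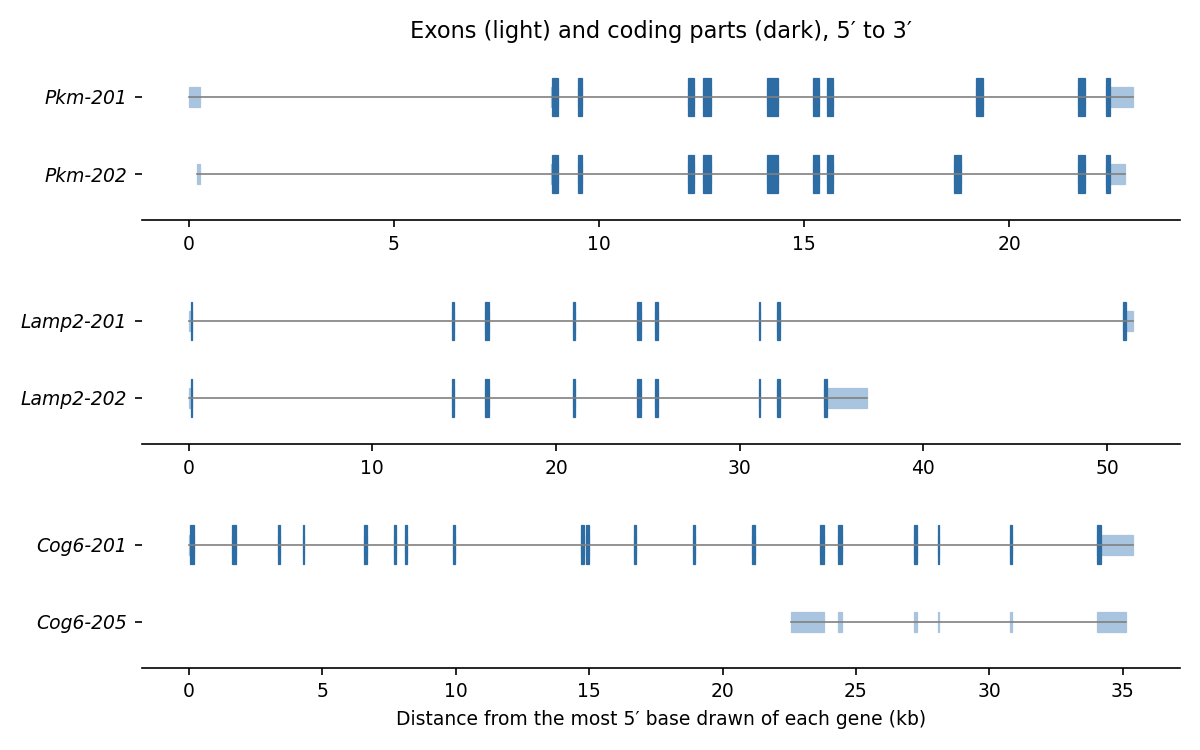
Exons of a pair of transcripts from each of Pkm, Lamp2 and Cog6, drawn 5′ to 3′ to scale against the distance from the most 5′ base of the gene (kb), with coding parts dark and tall and non-coding parts light and low. The Pkm pair differs in exon 9, the Lamp2 pair in the last exon, and Cog6-205 starts in an intron of Cog6-201.

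The first question was whether the APP/PS1 genotype altered transcript usage beside gene level. In the limma fit, 0 of 13913 transcripts were called (0% at an adjusted p under 0.05), and the smallest adjusted p was 0.229. At an unadjusted p under 0.05 there were 909 transcripts (6.53%), of which 420 had a higher share in AD (3.02%) and 489 a lower one (3.51%). They belonged to 669 of the 4987 genes (13.4%). Without AD p38KO mice 1 and 4 there were 0 calls (smallest adjusted p 0.553) and 957 transcripts (6.88%) at an unadjusted p under 0.05, and with labelled sex as a further term there were 0 calls (smallest adjusted p 0.296). In the same libraries, the summed level of 83 of 6142 genes was called (1.35%), with 72 higher (1.17%) and 11 lower (0.179%) in AD. Without AD p38KO mice 1 and 4 there were 67 level calls, and with labelled sex as a term 122. The p38 knockout, tested in the same fit, gave 59 usage calls in 39 genes (0.424%), led by Mapk14-202 (adjusted p = 6.88e-17), one of 3 tested transcripts of the floxed gene. Refits without 1 library gave 26 to 66 knockout calls in all, and 1320 transcripts (9.49%) had an unadjusted p under 0.05 for the knockout. For the APP/PS1 genotype, Mapk14-202 held 18.9% ± 20.5 of its gene in WT and 20.2% ± 21.7 in AD (SD, n = 8 each, exact permutation test, p = 0.555), a spread set by the knockout within each group of 8.

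The absence of calls has a size attached to it, for each transcript taken singly. A call needed the adjustment over 13913 transcripts, which the intervals below do not include. The 95% interval of the difference in share between AD and WT came from the same model fitted to the share in percent, while the calls came from log2 usage. It had a median half-width of 5.395 percentage points. It lay wholly within 5 points of no difference for 3381 transcripts (24.3%), within 10 points for 9637 (69.3%) and within 20 points for 13480 (96.9%). The median of the absolute differences was 1.78 points and the largest was 27.3 points, in Selenoi-203. Intervals were narrower in abundant genes. The median half-width was 7.41 points for genes of 10 to 30 CPM and 2.52 points for genes of at least 300 CPM, in which 69 of 728 transcripts (9.48%) had an unadjusted p under 0.05.

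Genes whose level moved were measured more closely than most. Of the 83 genes called for level, 64 had a tested transcript and 19 did not. Among the 163 tested transcripts of the 64 genes, the median half-width was 3.44 points, and the interval lay within 10 points for 144 (88.3%). Of the 163, 0 were called for usage and 24 (14.7%, against 6.53% of all tested transcripts) had an unadjusted p under 0.05. Of these 24, 14 were higher and 10 lower in AD, and the difference from the percentage over all transcripts was not tested. Every difference in share was under 5 points in 57 of the 64 genes, 6 genes had one of 5 to 10 points, and 1 gene had one over 10 points. That gene was Senp8, which encodes a protease of the ubiquitin-like protein NEDD8 and fell by 0.56 on the log2 scale (limma, adjusted p = 0.00691). Its Senp8-206 had a share of 31.1% ± 11.3 in WT and 47.5% ± 16.8 in AD (SD, n = 8 each), with an exact permutation p of 0.0335. The AD libraries ran from 24.4 to 82.5%, and AD p38KO mouse 4 was the highest.

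**Figure D2:**
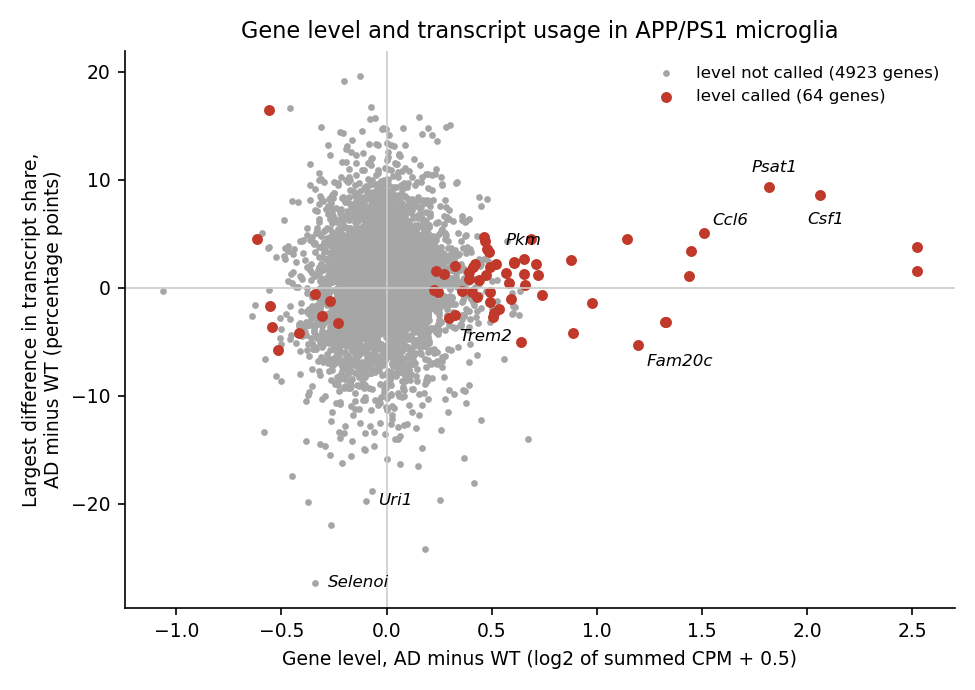
Each point is 1 of 4987 genes, with the difference in summed level between AD and WT libraries on the x axis (log2 of CPM + 0.5) and the largest difference in share among its tested transcripts on the y axis (percentage points). The 64 genes called for level (large points) reach 2.52 on the x axis, and all but 1 of them lie within 10 points on the y axis.

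In Ank, Axl and Apoe, which rose strongly in level, no tested transcript differed between AD and WT by more than 3.76 points. Ank, a membrane protein that exports pyrophosphate and citrate, rose from 56.8 to 342 CPM, a log2 difference of 2.52 (adjusted p = 1.31e-09). The share of Ank-201 was 71.6, 78.3 and 87.6% (lowest, median and highest) in WT and 76.7, 79.9 and 82.7% in AD libraries. The difference was 1.57 points (95% interval -2.69 to 5.82, exact permutation test, p = 0.467), and the AD libraries lay inside the range of the WT libraries.

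Axl, a receptor tyrosine kinase for dying cells, rose by 2.52 on the log2 scale (adjusted p = 3.14e-07). Axl-201 held 82.6% ± 6.68 of it in WT and 86.3% ± 3.98 in AD, with an interval of -1.82 to 9.35 points (exact permutation p = 0.190). Apoe, the lipid carrier of disease-associated microglia, had a mean level of 375 CPM in the WT and 888 CPM in the AD libraries. Its Apoe-209 had a share of 35.4% ± 3.80 in WT and 32.2% ± 2.84 in AD, a difference of -3.22 points (-6.70 to 0.27, exact permutation p = 0.0869).

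Csf1, Ccl6, Fam20c and Psat1, which also rose strongly in level, were among the level-called genes with differences of over 5 points. Psat1 rose by 1.82 on the log2 scale, and its Psat1-205 differed by -9.14 points (exact permutation p = 0.121). Csf1 encodes a cytokine on which microglia depend, and its level rose by 2.06 on the log2 scale. Csf1-203 had a share of 3.42, 9.71 and 17.2% in WT and 13.1, 16.9 and 28.5% in AD libraries. The groups overlapped, the difference was 8.58 points (2.38 to 14.79), and the exact permutation p was 0.0176 (limma, adjusted p = 0.710). Csf1-203 encodes the same number of residues (552) as Csf1-201, the main transcript, and ends at another 3′ end.

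Ccl6, a chemokine of myeloid cells, rose by 1.51. Its retained-intron transcript Ccl6-202 took 21.3, 25.3 and 30.0% in WT and 26.3, 31.1 and 34.1% in AD libraries, a difference of 5.05 points (1.98 to 8.11, exact permutation p = 0.00776). Here the retained-intron transcript had the higher share in AD. Fam20c, a kinase of secreted proteins, rose by 1.20, and its retained-intron transcript Fam20c-206 took 10.4% ± 6.41 in WT and 5.05% ± 2.60 in AD (exact permutation p = 0.0114).

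The transcripts nearest to the threshold lay in genes whose level was not called. AD and WT libraries did not overlap in 2 of 13913 transcripts (0.0144%), Cog6-201 and Morf4l2-212. With 8 against 8 libraries, a search of 13913 transcripts can give a count this small by chance. Cog6-201 had a share of 69.8, 77.8 and 87.6% in WT and 88.0, 90.8 and 97.5% in AD libraries, a difference of 13.2 points (8.50 to 17.9). Its limma p was 4.67e-05 (adjusted p = 0.229), and its exact permutation p was 0.000408, the smallest that relabelling within p38 genotypes can give. Cog6 level differed by -0.04 on the log2 scale.

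Cog6-205, whose boundary is printed above, took 5.41, 14.9 and 19.3% in WT and 0, 3.28 and 6.54% in AD libraries. The difference was -10.1 points (-14.2 to -6.05, exact permutation p = 0.000816), close in size and opposite in sign to that of Cog6-201. The ranges of WT and AD libraries met at their edges, from 5.41 to 6.54%.

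Morf4l2 encodes a subunit of histone acetyltransferase complexes. Its tested transcripts all encode 288 residues and differ in their 5′ exons. Morf4l2-212 took 12.1, 16.7 and 23.5% in WT and 7.49, 8.73 and 11.2% in AD libraries, a difference of -8.23 points (-11.8 to -4.69) with an adjusted limma p of 0.229 and an exact permutation p of 0.000408. Every AD library lay below every WT library.

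Zfp874a, a zinc finger gene, had a retained-intron transcript, Zfp874a-205, with a share of 3.45, 9.94 and 22.6% in WT. In AD it was 0.000179, 0.00103 and 7.86% (exact permutation p = 0.00122, limma adjusted p = 0.303). The lowest and median AD values of Zfp874a-205 were close to 0, as the division of reads by estimation can give. Its coding partner Zfp874a-202 took 74.4% ± 7.10 in WT and 89.97% ± 7.08 in AD. Selenoi, an enzyme of phospholipid synthesis, had the largest difference. Its coding Selenoi-203 took 54.3, 75.6 and 83.4% in WT and 8.95, 56.5 and 71.9% in AD libraries, with an interval of -45.0 to -9.65 points. Selenoi-201, a target of nonsense-mediated decay, took 11.6% ± 7.86 in WT and 37.3% ± 22.98 in AD (exact permutation p = 0.00571). The AD libraries of Selenoi spread far more widely than the WT libraries.

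Uri1-201, Uso1-201, Myh9-201 and Cacul1-202 had small unadjusted p-values and lay far from the threshold (limma, adjusted p = 0.669 for each). Uri1-201, of a prefoldin-like chaperone, took 91.8% ± 7.99 in WT and 72.1% ± 16.7 in AD (exact permutation p = 0.00408). Without WT p38+/+ mouse 2 it passed the limma threshold (adjusted p = 0.0280), and with all libraries it did not (0.669). Uso1-201, of a vesicle tether, took 61.4% ± 7.71 in WT and 75.5% ± 5.77 in AD (exact permutation p = 0.000816). Myh9-201, of non-muscle myosin heavy chain, took 87.9% ± 2.60 in WT and 92.5% ± 1.80 in AD (exact permutation p = 0.000408). Cacul1-202, of a protein with a cullin domain, took 3.91% ± 3.97 in WT and 11.9% ± 4.87 in AD (exact permutation p = 0.00367). The exact tests were run only on transcripts picked for small p or for their gene, so their p-values carry no adjustment for that choice.

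**Figure D3:**
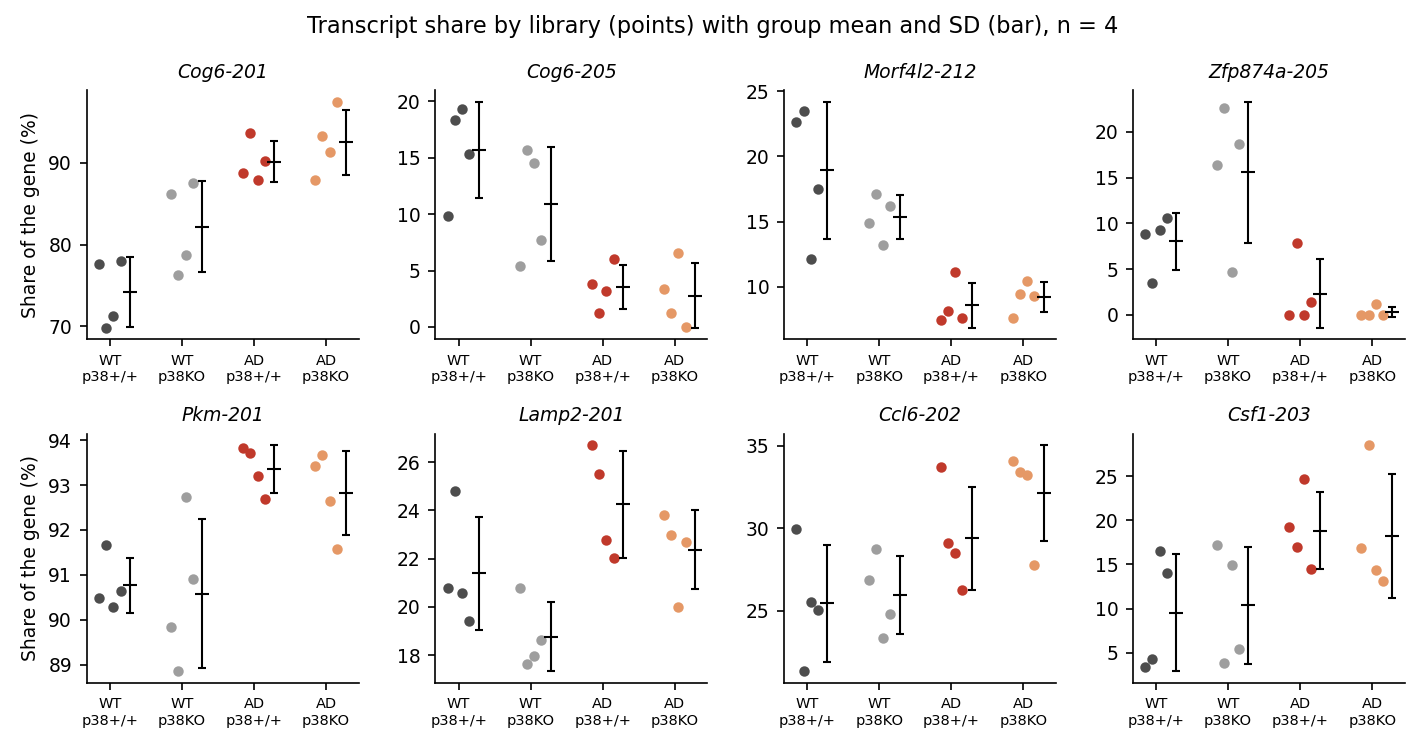
Share of the gene (%) in each of the 16 libraries for 8 transcripts, by group, with the group mean and SD (n = 4). Every AD library lies above every WT library for Cog6-201 and below for Morf4l2-212, and the groups overlap in the other 6 panels.

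Pkm and Lamp2 are textbook cases of alternative exons. Pkm-201, with the M2 exon printed above, took 88.9, 90.6 and 92.7% of its gene in WT and 91.6, 93.3 and 93.8% in AD libraries. Its difference was 2.41 points (0.56 to 4.27, exact permutation p = 0.00163, limma adjusted p = 0.669). Pkm-202, with the M1 exon, took 5.32, 7.47 and 9.18% in WT and 4.49, 4.798 and 7.80% in AD libraries (exact permutation p = 0.00898). The M2 transcript was the main one in both genotypes, and Pkm level rose by 0.61 on the log2 scale (adjusted p = 0.000436).

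Lamp2-201, with the LAMP-2A exon, took 17.6, 20.01 and 24.8% in WT and 20.01, 22.9 and 26.7% in AD libraries. The difference was 3.24 points (1.27 to 5.203, exact permutation p = 0.00776), and Lamp2-202 took 78.3% ± 2.45 in WT and 75.2% ± 1.96 in AD. Both Lamp2 transcripts overlapped between genotypes, and Lamp2 level differed by 0.06. Of the 250 tested transcripts on the textbook alternative splicing list, 20 (8%, against 6.53% of all tested transcripts) had an unadjusted p under 0.05, 11 higher and 9 lower in AD. The largest difference on that list was 13.4 points. They included Ptprc-204, of the leukocyte phosphatase CD45, at 5.28% ± 2.12 in WT and 9.42% ± 3.48 in AD (exact permutation p = 0.00776). Add3-205, of the membrane skeleton protein adducin, took 4.19% ± 2.09 in WT and 7.94% ± 2.51 in AD (exact permutation p = 0.00163). The retained-intron transcript Clasp1-217, of a microtubule-binding protein, took 15.6% ± 5.29 in WT and 6.42% ± 4.22 in AD (exact permutation p = 0.000408).

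Disease-associated microglia (DAM) genes are a set that microglia near amyloid plaques raise. Of the 32 DAM genes past the filter, 24 rose in level in AD (1.17% of all 6142 genes did) and the median log2 difference was 0.53, against -0.03 over all genes. Of their 51 tested transcripts (21 genes), 0 were called for usage and 10 (19.6%, against 6.53% of all tested transcripts) had an unadjusted p under 0.05, 6 higher and 4 lower. For this and the other lists, the difference from the percentage over all transcripts was not tested. The median half-width was 3.22 points, the median absolute difference was 1.30 points and the largest was 9.32 points. The intervals of 47 of the 51 (92.2%) lay within 10 points.

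The lysosomal members were among the most precisely measured. Ctsd-202, the main transcript of cathepsin D, took 93.6% ± 1.67 in WT and 93.2% ± 1.04 in AD, with an interval of -1.60 to 0.71 points and a level rise of 0.40. Ctsb-202, a retained-intron transcript of cathepsin B, took 11.6, 12.2 and 12.5% in WT and 12.2, 12.9 and 13.9% in AD libraries. That difference of 0.71 points (0.04 to 1.38) had an exact permutation p of 0.00327, and it was among the narrowest intervals given here. Gusb-203, of beta-glucuronidase, took 10.2% ± 1.72 in WT and 8.05% ± 0.769 in AD (exact permutation p = 0.00735).

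Trem2, the lipid receptor through which microglia enter the DAM state, rose by 0.30 on the log2 scale (adjusted p = 0.0391). Its coding Trem2-201 took 69.4, 78.3 and 80.9% in WT and 74.7, 80.0 and 84.1% in AD libraries (exact permutation p = 0.232). Its retained-intron Trem2-203 took 15.2% ± 3.66 in WT and 12.4% ± 2.06 in AD (exact permutation p = 0.0527). In the 11 other DAM genes past the filter a single transcript held over 95%. The tetraspanin transcript Cd9-201 held 99.1% in both WT and AD, Cd68-201 held 95.6 and 95.5%, and Cd52-201 held 99.7 and 99.8%, although each of these genes rose in level.

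Homeostatic microglia genes, which mark the resting state, had 65 tested transcripts in 24 genes, of which 6 (9.23%, against 6.53% of all) had an unadjusted p under 0.05, 3 in each direction. Of the 36 past the filter, 3 fell in level and 0 rose (0.179% of all 6142 genes fell and 1.17% rose). P2ry12-202, of the purinergic receptor used in the sort, took 61.2% ± 1.14 in WT and 60.8% ± 0.994 in AD, with an interval of -1.29 to 0.39 points. Cx3cr1-202, of the fractalkine receptor whose locus holds the Cre, took 88.2% ± 1.64 in WT and 87.0% ± 1.86 in AD (exact permutation p = 0.0567). Entpd1-201, of the ectonucleotidase CD39, took 63.4% ± 2.78 in WT and 60.2% ± 2.10 in AD (exact permutation p = 0.00857). Sparc-201, of a matrix-binding protein, took 28.9% ± 2.54 in WT and 32.1% ± 1.75 in AD (exact permutation p = 0.00776). Tmem119-201 held 99.9% of its gene in both.

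Lysosome genes had 94 tested transcripts, 10 (10.6%, against 6.53% of all) of them with an unadjusted p under 0.05, while 10 of the 61 genes past the filter rose in level, against 1.17% of all genes. Grn-201, of progranulin, took 48.9% ± 0.437 in WT and 48.6% ± 0.410 in AD, with an interval of only -0.81 to 0.32 points beside a level rise of 0.23. Psap-203, of the saposin precursor, took 25.7% ± 2.54 in WT and 22.9% ± 1.98 in AD (exact permutation p = 0.0163). Of the 10 lysosomal transcripts at that p, 6 had a higher and 4 a lower share in AD.

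Of the tested transcripts of 36 genes at Alzheimer risk loci, 14 (13.1%, against 6.53% of all) were at an unadjusted p under 0.05, 7 in each direction, and 4 of the 42 genes past the filter rose in level, against 1.17% of all genes. Abca7-203, of a lipid transporter, took 18.2, 35.8 and 39.4% in WT and 36.7, 42.9 and 65.8% in AD libraries (exact permutation p = 0.00245). Siglecf-203, of a sialic acid receptor, took 29.5% ± 5.23 in WT and 44.5% ± 15.8 in AD (exact permutation p = 0.0253). Cd33-202, of another sialic acid receptor, took 9.53% ± 2.12 in WT and 11.7% ± 2.24 in AD (exact permutation p = 0.0543). Of the mouse App gene, App-201, which lacks the Kunitz inhibitor exon of the longer forms, took 7.56% ± 2.36 in WT and 10.2% ± 2.50 in AD (exact permutation p = 0.0624). App-203, the most abundant, took 42.5% ± 7.17 in WT and 40.5% ± 4.69 in AD. App was the one transgene-related gene with tested transcripts (1 of 4, or 25%, at an unadjusted p under 0.05), and whether reads of the human transgene were assigned to it was not tested.

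Splicing factors, many of which regulate their own introns, had 234 tested transcripts in 62 genes. Of these, 26 (11.1%, against 6.53% of all) had an unadjusted p under 0.05, 15 higher and 11 lower. Of the 64 genes past the filter 0 were called for level, against 1.35% of all genes. Srrm1-207, a retained-intron transcript of a spliceosome scaffold, took 37.0, 40.9 and 50.2% in WT and 24.5, 29.7 and 42.2% in AD libraries (exact permutation p = 0.00408). Hnrnpdl-202, of an RNA-binding protein, took 37.9% ± 10.6 in WT and 57.0% ± 13.6 in AD (exact permutation p = 0.00653). Celf2-218, a retained-intron transcript, took 15.3% ± 2.60 in WT and 10.9% ± 3.57 in AD (exact permutation p = 0.0184). The coding Sfpq-201, of a paraspeckle protein, took 84.5% ± 2.89 in WT and 89.2% ± 3.57 in AD (exact permutation p = 0.00653).

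Of the 24 interferon response genes past the filter, 2 rose in level, against 1.17% of all genes. Interferon response genes had 59 tested transcripts, of which 2 (3.39%) had an unadjusted p under 0.05. Adar, an RNA editing enzyme with an interferon-inducible promoter, gave the smaller p of them. Adar-201 took 35.9, 37.5 and 45.2% in WT and 42.2, 45.1 and 49.0% in AD libraries, a difference of 6.64 points (3.97 to 9.30, exact permutation p = 0.000816). Antigen presentation genes had 1 of 39 tested transcripts (2.56%) at that p, and phagocytosis and amyloid clearance genes 3 of 75 (4%). Over all tested transcripts it was 6.53%.

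Genes of p38 and other MAP kinase cascades had 76 tested transcripts, 6 (7.89%, against 6.53% of all) with an unadjusted p under 0.05. Of the 35 genes past the filter, 1 fell in level, against 0.179% of all genes. Map2k2-202, of the kinase MEK2, took 63.0, 70.8 and 73.4% in WT and 72.1, 74.9 and 83.2% in AD libraries (exact permutation p = 0.000816). Zfp36-201, of a protein that destabilizes cytokine mRNAs, took 25.0% ± 6.42 in WT and 30.7% ± 3.09 in AD (exact permutation p = 0.0131). Atf2-207, of a transcription factor phosphorylated by p38, took 11.1% ± 6.24 in WT and 18.6% ± 4.52 in AD (exact permutation p = 0.0127). The genes that the study names had 17 tested transcripts, 2 (11.8%, against 6.53% of all) at an unadjusted p under 0.05. Of these genes, Csf2ra, a cytokine receptor subunit, rose by 0.58 in level while Csf2ra-201 took 51.8% ± 6.42 in WT and 52.0% ± 6.80 in AD (-6.71 to 7.02 points). The study reported the opposite direction for Csf2ra, a reduction in AD p38+/+ mice against WT. The rise here is in CPM summed over its transcripts with both p38 genotypes pooled, so samples and test differ. Tmc7-201, of a membrane channel-like protein, took 91.9% ± 2.05 in WT and 96.4% ± 2.93 in AD (exact permutation p = 0.00612), and Tmc7 fell by 0.62 in level. Rtp4 rose by 1.14 in level (limma, adjusted p = 0.0025). For Tmc7 and Rtp4 the study reported the same directions, in AD p38+/+ mice against WT.

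Retained-intron transcripts lay mostly on the lower side in AD. Of the 183 with an unadjusted p under 0.05 (6.48% of 2822), 24 had a higher and 159 a lower share in AD, against 364 and 291 of 655 protein-coding transcripts (6.68%). Over all 2822, 64.5% had a lower share in AD, with a median difference of -0.62 points, and the percentage was 61.4% in p38+/+ and 60.2% in p38KO mice. Without AD p38KO mice 1 and 4 it was 63.6%. Of the protein-coding transcripts 46.9% and of the nonsense-mediated decay transcripts 53.0% were lower in AD, and 58.6% of the processed transcripts. Transcripts of a library are not independent of each other, so these percentages carry no test.

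Summed over a library, the class share can be tested with 1 value per mouse. Retained-intron transcripts took 5.11, 5.61 and 6.24% of the summed CPM of the 6142 genes in WT and 4.89, 5.24 and 6.31% in AD libraries. The difference was -0.292 points (exact permutation test within p38 genotypes, p = 0.224, adjusted over the 4 classes 0.355). Within p38+/+ mice the share was 5.80% ± 0.531 in WT and 5.32% ± 0.447 in AD, and within p38KO mice it was 5.60% ± 0.285 in WT and 5.50% ± 0.576 in AD (SD, n = 4). AD p38KO mouse 4, one of the libraries that stood apart, had the highest value of all 16. Without AD p38KO mice 1 and 4 the difference was -0.366 points (exact permutation p = 0.0943, adjusted 0.149), and without mouse 4 alone it was -0.428 points (exact permutation p = 0.0490, adjusted 0.0865). Protein-coding transcripts differed by 0.373 points (exact permutation p = 0.225). The class as a whole differed by less than the spread between libraries.

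**Figure D4:**
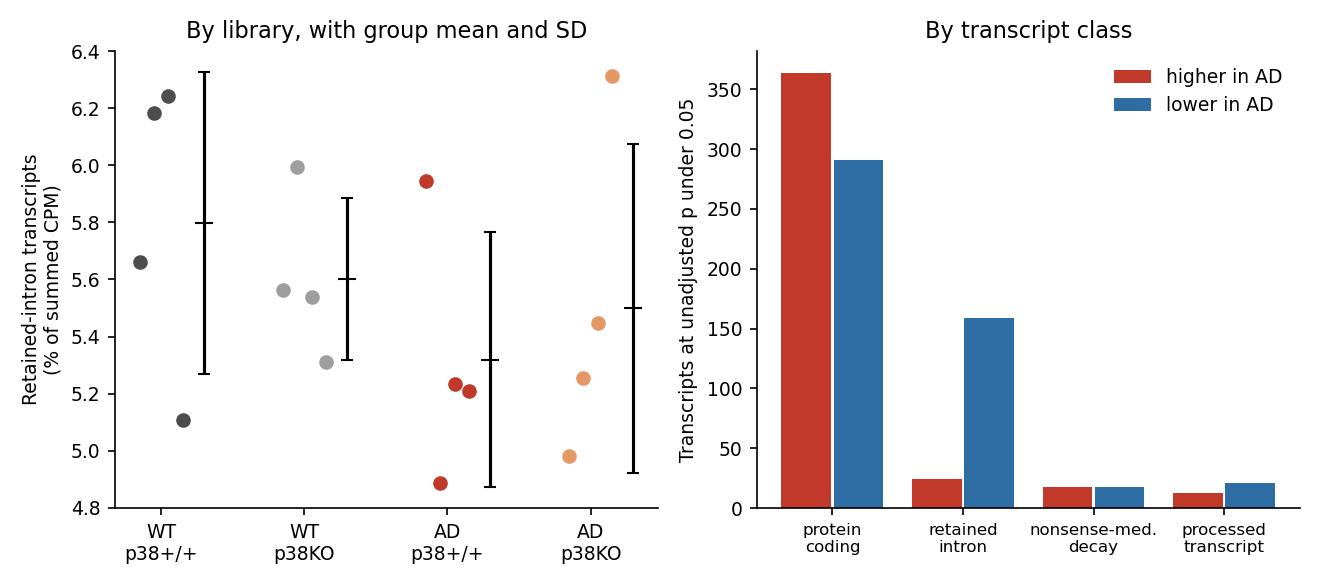
Left, the share of the summed CPM (%) on retained-intron transcripts in each library by group, with the group mean and SD (n = 4). Right, the number of transcripts at an unadjusted p under 0.05 with a higher or lower share in AD, by annotated class. The groups overlap on the left, and on the right retained-intron transcripts are the class with 24 higher and 159 lower.

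The APP/PS1 comparison was also made in each p38 genotype, and these contrasts share no library. In p38+/+ mice 0 transcripts were called and 517 (3.72%) had an unadjusted p under 0.05. In p38KO mice 0 were called and 981 (7.05%) did. With each pair of groups fitted alone, without the spread of the other 8 libraries, 0 were called in either and the counts were 695 (4.995%) and 770 (5.53%), so most of the gap between the p38 genotypes was absent. The direction was the same in both for 7314 of the 13913 transcripts (52.6%), and for 33 of the 47 with an unadjusted p under 0.05 in both (70.2%). Among the 33, Cog6-201 took 74.1% in WT and 90.2% in AD mice with p38α, and 82.2 and 92.5% in those without it. Pkm-201 took 90.8, 93.4, 90.6 and 92.8% in the same order.

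Chid1-206, a retained-intron transcript of a secreted chitinase-domain protein, took 31.4, 11.7, 32.8 and 8.58% in that order of groups. Atp5l-201, the coding transcript of a subunit of mitochondrial ATP synthase, took 61.2, 75.9, 68.4 and 82.1%. Bmf-202, of a pro-apoptotic BH3 protein, took 27.9, 15.4, 20.8 and 12.5%, and Tspan32-201, of a leukocyte tetraspanin, took 22.99, 7.75, 17.2 and 5.35%. The p38 genotypes gave like differences from separate mice in these transcripts, which were selected for it. By class, the 33 held 25 protein-coding transcripts (70.4% of all tested transcripts were of this class), of which 17 were higher and 8 lower in AD. They also held 1 target of nonsense-mediated decay (4.84% of all) and 7 retained-intron transcripts (20.3% of all). Of these 7, 0 were higher and 7 lower in AD, where 64.5% of all retained-intron transcripts were lower. These counts were not tested. The other 14 of the 47 went in opposite directions in the p38 genotypes.

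**Figure D5:**
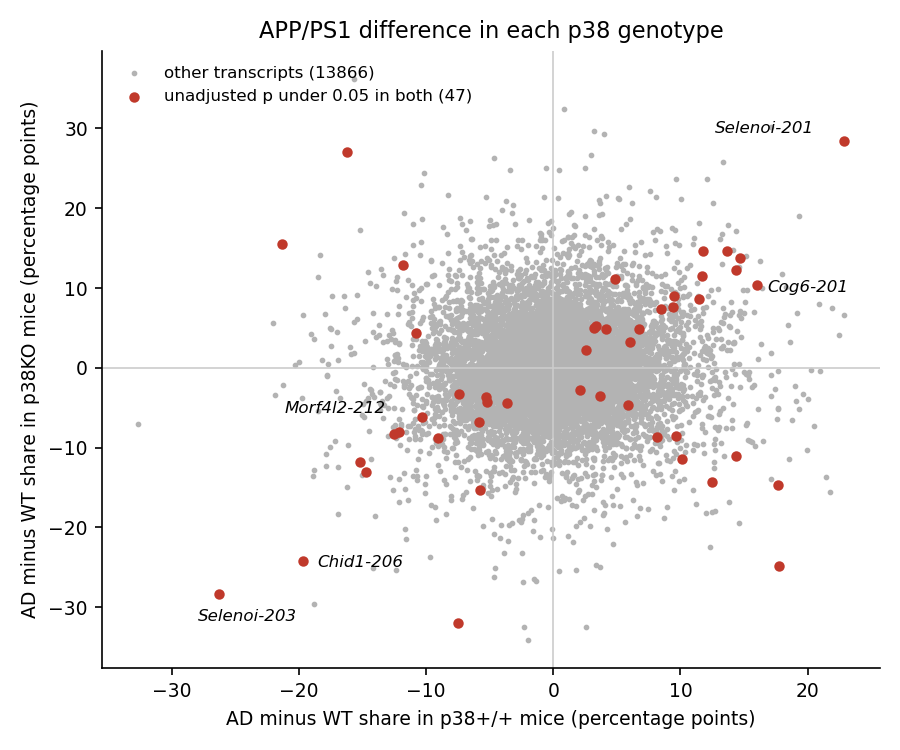
Difference in share between AD and WT in p38+/+ mice (x axis) and in p38KO mice (y axis), in percentage points, for 13913 transcripts. Of the 47 transcripts with an unadjusted p under 0.05 in both (large points), 33 lie in the quadrants of like direction.

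The difference between the p38 genotypes was tested as an interaction. No transcript was called, 630 (4.53%) had an unadjusted p under 0.05, and Ttc33-201 came closest (adjusted p = 0.0602). Ttc33 encodes a protein with tetratricopeptide repeats. With p38α present, Ttc33-201 took 34.0% ± 3.80 in WT and 51.7% ± 5.62 in AD, and in p38KO mice it took 51.0% ± 3.83 in WT and 26.3% ± 4.86 in AD (SD, n = 4). Its partner Ttc33-203 ran the other way, at 60.4, 44.2, 45.0 and 72.1% in that order (interaction adjusted p = 0.367). With the test on the share in percent, Ttc33-201 passed (adjusted p = 0.00263), and so it did in 4 of the other settings tried.

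Without the limit of 5% on the mean share, calls appeared in scarce transcripts. With all 33907 transcripts tested, 3 were called, each lower in AD: Csf1-206 (adjusted p = 0.000108), Psat1-203 (0.00603) and Axl-204 (0.00769). All 3 genes rose in level, Csf1 from 18.8 to 81.2 CPM, Axl from 46.0 to 265 CPM and Psat1, of serine synthesis, from 17.8 to 65.3 CPM. The transcripts themselves were under 3 reads in 12, 14 and 13 of the 16 libraries for Csf1-206, Psat1-203 and Axl-204. With 0.5 CPM added to a transcript near 0, the fitted usage falls as the rest of the gene rises. The mean share of Csf1-206 was 0.464% in WT and 0.0800% in AD, lower in AD like the fitted difference. The mean shares of Psat1-203 (0.103% in WT and 0.159% in AD) and Axl-204 (0.0287 and 0.0783%) were higher in AD, where the fitted differences were lower. With 0.1 CPM added there were 0 calls among these transcripts and with 1 CPM there were 18, of which 17 were lower.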

How the data were processed

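RNA of CD11b+/P2ry12+ microglia from 16 mice was sequenced with paired ends. The authors aligned the reads with STAR to mm10 and quantified Ensembl transcripts in Partek Flow 10.0.22.0828. The deposited values are CPM per transcript (per 1000000 assigned reads), to which the authors added 0.0001, and this was subtracted. Reads common to several transcripts are divided by estimation, so shares are model-based. Strand handling is not given in the sources used here, and reads of overlapping or antisense genes may be mixed. Counts cannot be recovered, since 23.3 to 26.3% of low values were whole reads within 0.05. Depth was estimated from the step of 1 read. The second deposited table, of genes, was not used here, and 0 columns were left without a sample.

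Usage was log2((t + 0.5)/(g - t + 0.5)), where t is the transcript's CPM and g that of its gene symbol. All 16 libraries were fitted in limma 3.58.1 (R 4.3.3) with APP/PS1 and p38 genotype as additive terms, prior variance trended on the harmonic mean of t and g - t, and two-sided tests with Benjamini-Hochberg adjustment over 13913 transcripts. A fit of the 4 groups gave the interaction and the effect within each p38 genotype. Gene level was log2(g + 0.5), fitted likewise over 6142 genes. Single shares and class shares were tested by exact permutation of the mean difference, two-sided, over all 4900 relabellings within p38 genotypes (smallest p 0.000408). The script was tested on simulated data. The mice of a group are separate animals.

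The members, the 12 gene lists and the tests were chosen with earlier results of these data known. Named were, in each list, up to 4 genes by smallest p of a tested transcript and up to 2 by highest CPM, the genes the study names, and the 6 transcripts with the smallest interaction p. Since the rule covers called transcripts and none was called, the 12 transcripts with the smallest p, Ank, Axl, Apoe, Atp5l, Bmf, Chid1, Commd1, Igf1, Psat1, Senp8 and Tspan32, and the sequences printed were chosen after their values were seen. Some genes that the rule names are not reported here. Positions are from GENCODE M21 (GRCm38), which held 60774 of 61144 transcripts (99.4%), and sequences from its transcripts. The sexes were unequal, with 5 mice labelled female (3 WT and 2 AD). Alternatives were other pseudocounts, filters, scales and covariates, diffSplice, array weights, the animal number as a replicate block, and each library left out.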

Additional observations from a re-analysis of the deposited data

Results flagged for a closer look

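In 304 groups of 4 mice (the shares of 72 named transcripts and of the 4 classes in each group), 25 values lay apart from the other 3 by Dixon's criterion, where chance gives about 1 in 20 groups. Of these, 7 were in AD p38KO mice, 4 of them in mice 1 and 4, and no cause was tested.

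Several were in genes described for their AD difference. Abca7-203 was 65.8% in AD p38+/+ mouse 1 against 39.1 to 43.7% in the other 3, and without that mouse the direction stayed the same. Selenoi-203 was 12.2% in AD p38+/+ mouse 4 (61.7 to 71.9% in the others). Ccl6-202 was 27.8% and Ccl6-201 71.9% in AD p38KO mouse 4, against 33.2 to 34.1% and 65.6 to 66.6%. Senp8-206 was 82.5% in AD p38KO mouse 4 (45.3 to 51.5%). Zfp874a-205 was 1.16% in AD p38KO mouse 3, with the others close to 0 (0.000179 to 0.00143%). Lamp2-202 was 78.6% in AD p38KO mouse 3 (75.0 to 75.5%). Cacul1-202 was 11.9% in WT p38+/+ mouse 1 (0.528 to 1.85%), and Atp5l-201 was 47.7% in WT p38+/+ mouse 2 (64.5 to 67.7%). Tspan32-201 was 2.76% in WT p38KO mouse 3 (21.5 to 22.6%) and 17.2% in AD p38KO mouse 2 (0.149 to 2.77%). Srrm1-207 was 45.4% in WT p38KO mouse 2 (37.0 to 37.7%).

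Both tested Trem2 transcripts named above stood out in 1 WT p38+/+ library. In mouse 2, Trem2-203 was 23.97% (14.3 to 14.9%) and Trem2-201 was 69.4% (78.0 to 79.3%), and Trem2-201 was 84.1% in AD p38+/+ mouse 2 (80.6 to 80.8%). App-203 was 53.4% in WT p38KO mouse 4 (34.4 to 37.7%) and App-202 14.4% in AD p38KO mouse 1 (11.4 to 11.6%). Ctsd-202 was 97.1% in WT p38+/+ mouse 4 (93.7 to 94.2%) and 92.3% in AD p38+/+ mouse 4 (94.0 to 94.3%). In narrow groups small gaps sufficed, as for Grn-201 at 48.4% in WT p38KO mouse 2 (48.9% in the others) and P2ry12-202 at 61.4% in WT p38+/+ mouse 3 (60.1%). The remaining values were Klf7-202 at 62.4% in AD p38+/+ mouse 2 (71.1 to 72.0%), Mapk14-203 at 61.0% in WT p38+/+ mouse 4 (44.8 to 46.2%), Mef2c-227 at 31.8% in AD p38+/+ mouse 2 (23.8 to 24.1%) and Sparc-201 at 32.6% in WT p38KO mouse 3 (28.04 to 28.8%).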

How the results depend on the processing

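The count of APP/PS1 usage calls stayed at 0 in all settings but 4. It was 3 with no filter on the mean share, 1 with limma diffSplice (Commd1-201, adjusted p = 0.00720), 1 without WT p38+/+ mouse 2 (Uri1-201), and 18 with no filter and 1 CPM added, a setting chosen after seeing the data. Leaving out 1 library gave 0 to 1 usage calls. The p38 knockout gave 59 usage calls, 13 without a trend in the prior variance, and 26 to 66 with 1 library left out. It gave under 40 without WT p38+/+ mouse 1 (37), WT p38KO mice 2 (35), 3 (27) or 4 (37), or AD p38+/+ mice 2 (26) or 3 (29). The interaction gave 1 call, Ttc33-201, with a mean share of 10 to 90%, the share in percent, its arcsine, coding transcripts only or no trend, and 0 to 1 with 1 library left out, where Foxp1-225 was called without WT p38KO mouse 4 (adjusted p = 0.0114). Gene level gave 60 to 100 calls with 1 library left out.

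With 1 library left out, the class share difference was 0.273 to 0.531 points for protein-coding, -0.428 to -0.206 for retained-intron, -0.0576 to -0.00899 for nonsense-mediated decay and -0.0478 to -0.0217 for processed transcripts. As a mean over genes, nonsense-mediated decay reversed to 0.00274 points (adjusted p = 0.929), and the retained-intron difference was -0.477 points (exact permutation p = 0.0882, adjusted 0.235). The cause was not tested. Retained-intron transcripts lower in AD were 61.3 to 67.2% with 1 library left out and 56.9 to 67.0% in 20 other settings. Of the 72 named transcripts, 64 kept their direction in every setting run, and 3 passed the threshold in 1 setting each: Uri1-201, Commd1-201 and, with no filter and 1 CPM added, Cog6-201 (adjusted p = 0.0397). The other 8, none with an unadjusted p under 0.05 in the fit of all libraries, changed direction in 1 to 10 settings, where the smallest adjusted p was 0.778. The changed log2 differences in usage were -0.0465 for Trem2-201 and -0.028 for Mef2c-227 with coding transcripts only, -0.033 for App-204 with diffSplice, 0.115 for Ttc33-201 and 0.315 for Cdc37l1-201 without AD p38KO mice 1 and 4, and 0.0592 for Cdc37l1-201 with array weights, with or without a trend (0.285 points with the share in percent). For Csf2ra-201 they were -0.00786 with diffSplice or coding transcripts only and -0.0113 with sex added. With 1 library left out, the range was -0.245 to 0.0376 for App-202, -0.162 to 0.0102 for App-203, -0.0156 to 0.182 for App-204, -0.0011 to 0.101 for Mef2c-227, -0.0774 to 0.107 for Csf2ra-201 and -0.487 to 0.285 for Cdc37l1-201.

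Animal numbers did not pair the mice: over 24 same-number pairs of libraries, deviations correlated by -0.0512 to 0.137 (median -0.00282). With the number as a replicate block there were 0 APP/PS1 usage calls (smallest adjusted p 0.439), 43 for the p38 knockout, 0 for the interaction and 91 for gene level. Depth limits scarce transcripts, since 3 reads are 0.183 to 0.244 CPM. The intervals, with each transcript taken singly, leave differences under about 5 points unresolved for most transcripts. Larger differences could also go uncalled after the adjustment over 13913 transcripts, as in Selenoi-203 (-27.3 points) and Cog6-201 (13.2 points).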
